A study of Mus musculus with 12 samples.

Results

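The AT1 cell markers are 9 genes used to recognise alveolar type 1 cells of the lung: Hopx, Ager, Pdpn, Aqp5, Rtkn2, Cav1, Cav2, Gprc5a and Emp2. They were taken by symbol from the deposited count table, which lists 30743 genes or transcripts, and all 9 were present and passed the filter on low counts. RNA was measured by bulk sequencing in 12 libraries of cancer cells sorted from mouse lung tumours on a mixed BL6/129 background, after cells bearing CD45, CD31, F4/80 or Ter119 were excluded. The groups were 3 libraries of KT;Lkb1f/f tumours (Lkb1-deleted), in which floxed alleles of Stk11, the gene of the kinase Lkb1, are removed by Cre, and 5 libraries of KT;H11LSL-Cas9 tumours with guides against Sik genes (Sik-targeted), with 4 libraries of KT tumours as the controls. Of the Sik-targeted libraries 3 are titled sgSik1 and 2 are titled sgSik1-3, and the genotype label gives both the same name. All groups share the KT background, which the labels do not spell out. A lentiviral Cre vector is named in the labels of KT replicates 2, 3 and 4, and no Cre vector in those of KT replicate 1. They do not state that the libraries of a group came from separate animals, so each p-value below is set against the spread between libraries only, part or all of which may be technical. Lkb1 activates the Sik family of kinases (Sik1, Sik2 and Sik3), and the comparisons address how the 2 perturbations bear on the state of the tumour cells.

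Alveolar type 1 cells are thin, flat cells that cover most of the gas-exchange surface, and alveolar type 2 (AT2) cells are the cuboidal, surfactant-producing cells from which they can be renewed. Lung tumours in mice can arise from AT2 cells and can retain part of the AT2 programme, and AT1 markers are commonly read in them as a sign of alveolar differentiation. During renewal AT2 cells pass through a transitional state with high keratin 8 before they take on AT1 features. Several of the 9 genes are not confined to AT1 cells: Cav1 and Cav2 are abundant in endothelium and fibroblasts, Pdpn in lymphatic endothelium, mesothelium and fibroblasts, and Aqp5 in airway glands.

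Library totals lay between 3847760 and 13955181 counts. KT replicates 2 and 3 stood apart, detecting 23582 and 23747 genes where the other 10 libraries detected 14283 to 16533, and 998 and 1063 olfactory and vomeronasal receptor genes where the others detected 14 to 58. The 4 most abundant transcripts held between 18.4% and 74.2% of a library. Y-linked genes, summed over 4 genes, passed 10 CPM in 2 of 3 Lkb1-deleted, 0 of 3 sgSik1, 2 of 2 sgSik1-3 and 0 of 4 KT libraries, and the labels give no sex. Stk11 stood at 9.23 to 16.6 CPM in Lkb1-deleted libraries and at 31.0 to 44.7 CPM in KT libraries, with a log2 change of -1.71 (SE 0.54, adjusted p 0.16). Against KT, Sik-targeted libraries had higher Sik1 (log2 change 2.24, adjusted p 0.0078) and Sik2 (1.22, 0.0328) and lower Sik3 (-1.33, 0.0209), and Cas9 edits need not lower the RNA of the gene they hit. Sik1 (1.85, adjusted p 0.0852) and Sik2 (1.53, 0.0692) were also higher in Lkb1-deleted libraries, without passing. Sik3 changed there by 0.46 (adjusted p 0.669). CPM are counts scaled to library sizes that were normalised by trimmed mean of M values (TMM), and adjusted p-values are from edgeR's quasi-likelihood test with Benjamini-Hochberg adjustment over all tested genes, passed at 0.05.

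Divided by exon length, the markers covered a wide range of RNA levels. Gprc5a, a retinoic acid-induced orphan receptor, was highest with 133 ± 65.7 CPM per kb (SD over all 12 libraries). Ager and Aqp5 followed with 71.2 ± 45.4 and 66.6 ± 26.8 CPM per kb, and these neighbours in the order could not be told apart, since Ager exceeded Aqp5 in 6 of 12 libraries. Emp2 stood at 29.7 ± 9.04, Hopx at 15.4 ± 7.95 and Cav2 at 7.50 ± 5.73 CPM per kb. The lowest were Cav1 (4.78 ± 4.62), Pdpn (2.67 ± 2.44) and Rtkn2 (1.65 ± 2.05 CPM per kb), with Cav1 above Pdpn in 9 of 12 libraries and Pdpn above Rtkn2 in 9 of 12. Aqp5 exceeded Emp2 in 12 of 12 libraries, the only step in the order that every library showed. The 3 least abundant markers were also those with the 3 most negative log2 changes with Sik targeting, given below and visible in the plot of levels in each library. This order includes the perturbed libraries, so a fall there itself lowers a marker's place in it. In KT libraries alone Rtkn2 (4.05), Cav2 (4.91) and Pdpn (5.32 CPM per kb) averaged lowest, and Cav1 stood above them at 9.45.

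**Figure D1:**
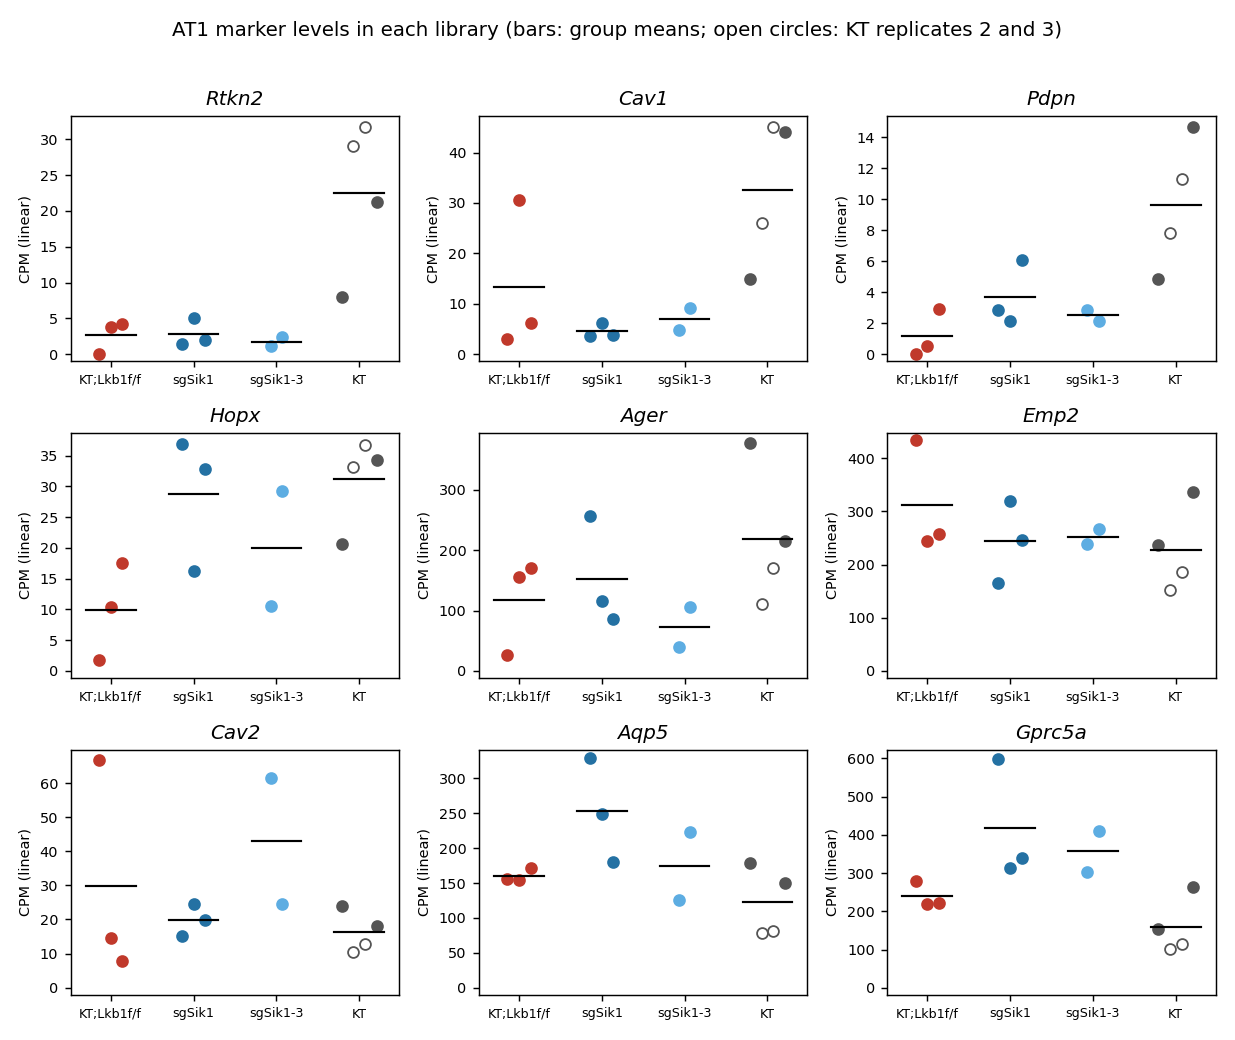
CPM of each AT1 marker (vertical axes, linear, 1 scale per gene) in every library of the Lkb1-deleted, sgSik1, sgSik1-3 and KT groups; bars are group means and open circles are KT replicates 2 and 3. Rtkn2 lay below every KT library in all 8 perturbed libraries, Cav1 in all 5 Sik-targeted libraries, and Gprc5a lay above every KT library in all 5 Sik-targeted libraries.

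With Sik targeting, Rtkn2 and Cav1 fell and Gprc5a rose, and the other 6 markers did not pass. Rtkn2 was 9.22-fold lower and Cav1 5.90-fold lower in Sik-targeted than in KT libraries, and Gprc5a was 2.48-fold higher. That is 1 marker called higher, where 5.81% of the 13575 tested genes were, and 2 called lower, where 6.56% were. The median log2 change of the 9 markers was -0.31, beside -0.03 for all tested genes. With Lkb1 deletion 0 of 9 markers were called by edgeR, where 1.16% of all tested genes were, and 3 had an unadjusted p under 0.05 (13.1% of all genes), each of them lower: Pdpn, Rtkn2 and Hopx. DESeq2 called 2 of these, Pdpn and Rtkn2, as did limma-voom. The median log2 change was -0.89, beside -0.04 for all tested genes. Groups did not overlap for 3 markers lower in Lkb1-deleted libraries (8.30% of all genes) and 0 higher (6.38%), and for 2 lower (8.79%) and 1 higher (7.32%) in Sik-targeted libraries. Both comparisons use the same 4 KT libraries. Without KT replicates 2 and 3 together, 0 of the 9 markers passed with Sik targeting, with log2 changes of -2.61 for Rtkn2 (adjusted p 0.182), -2.44 for Cav1 (0.119) and 0.89 for Gprc5a (0.337).

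**Figure D2:**
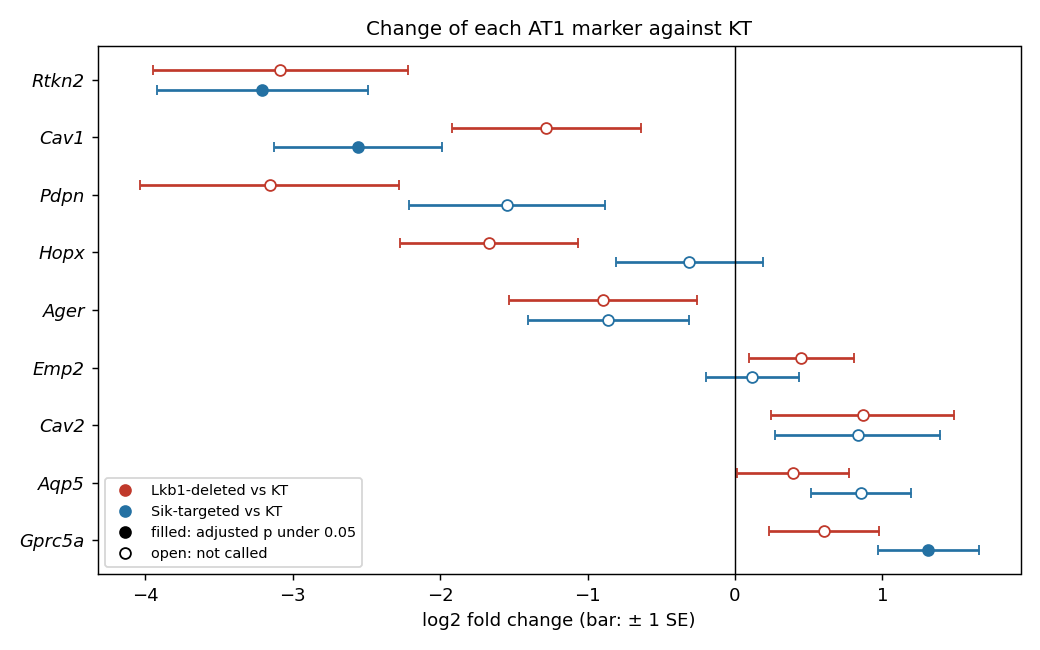
Log2 fold change of each AT1 marker against KT (horizontal axis, bars 1 SE) for Lkb1-deleted (upper, red) and Sik-targeted libraries (lower, blue), with filled points where the adjusted p was under 0.05. Rtkn2 and Cav1 are the filled points on the left and Gprc5a is the filled point on the right, and all 3 belong to Sik targeting.

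Rtkn2, which encodes rhotekin 2, is among the most specific AT1 genes in mouse lung. It lies on chromosome 10 (67979570 to 68059740, plus strand, GRCm38). Lkb1-deleted replicates 1 to 3 had 0, 3.81 and 4.22 CPM of Rtkn2, sgSik1 replicates 1 to 3 had 1.42, 4.98 and 1.96, and sgSik1-3 replicates 1 and 2 had 1.18 and 2.35. KT replicates 1 to 4 had 8.02, 29.0, 31.6 and 21.2 CPM. Every perturbed library was below every KT library, and KT replicate 1 was the KT library nearest to them. The change in Sik-targeted libraries was -3.21 on the log2 scale (SE 0.71, adjusted p 0.012). The change in Lkb1-deleted libraries was -3.08 (SE 0.86, adjusted p 0.106), and the direct difference between Lkb1-deleted and Sik-targeted libraries was 0.12 (SE 0.78, adjusted p 0.963). The 0 in Lkb1-deleted replicate 1 allows up to 0.364 CPM, the level of 3 counts in that library, and covers counting error only. An antisense gene shares 216 exonic bases with Rtkn2, and the strand setting of the counting is not given in the sources used here, so reads of the pair cannot be told apart.

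Pdpn, or podoplanin, is a mucin-like glycoprotein of the AT1 apical membrane that ties to ezrin and the actin cortex (chromosome 4, 143267431 to 143299564, minus strand). Lkb1-deleted libraries had 0, 0.514 and 2.94 CPM of Pdpn, from 0, 5 and 16 counts. In sgSik1 libraries the level was 2.84, 2.14 and 6.11 CPM and in sgSik1-3 libraries 2.83 and 2.17, against 4.88, 7.82, 11.3 and 14.6 CPM in KT replicates 1 to 4. All Lkb1-deleted libraries lay below all KT libraries, and sgSik1 replicate 3 was the only Sik-targeted library to reach into the KT range. The log2 change was -3.16 with Lkb1 deletion (SE 0.88, adjusted p 0.106) and -1.55 with Sik targeting (SE 0.67, adjusted p 0.14), and the difference between the perturbed groups was -1.61 (SE 0.83, adjusted p 0.442). Without Lkb1-deleted replicate 3, the Pdpn change with Lkb1 deletion was -5.07 and passed (adjusted p 0.0356), and without Lkb1-deleted replicate 1 the change with Sik targeting was -1.52 and passed (adjusted p 0.0483).

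Hopx, an atypical homeodomain protein without DNA binding of its own, marks AT1 cells and their precursors (chromosome 5, 77086988 to 77115121, minus strand). Its level was 1.70, 10.4 and 17.6 CPM in Lkb1-deleted libraries, 36.9, 16.2 and 32.9 CPM in sgSik1 libraries, and 10.6 and 29.3 CPM in sgSik1-3 libraries. KT libraries had 20.6, 33.2, 36.7 and 34.4 CPM. The Lkb1-deleted libraries were all below KT, whereas the Sik-targeted libraries spread across the KT range. The log2 change was -1.67 with Lkb1 deletion (SE 0.60, adjusted p 0.219) and -0.31 with Sik targeting (SE 0.50, adjusted p 0.731). Tested directly, Hopx differed between Lkb1-deleted and Sik-targeted libraries by -1.36 (SE 0.58, unadjusted p 0.0329, adjusted p 0.352), which did not pass. Hopx shares 412 exonic bases with an antisense gene, with the same limit as for Rtkn2.

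Ager encodes RAGE, the receptor for advanced glycation end-products, one of the most abundant AT1 membrane proteins (chromosome 17, 34597862 to 34600936, plus strand). Lkb1-deleted libraries had 27.1, 155 and 171 CPM, sgSik1 libraries 256, 116 and 86.1 CPM, and sgSik1-3 libraries 39.0 and 106 CPM. KT libraries had 377, 111, 170.5 and 215 CPM. The Lkb1-deleted and sgSik1 libraries overlapped with KT, while both sgSik1-3 libraries were below every KT library. The log2 change was -0.89 with Lkb1 deletion (SE 0.64, adjusted p 0.609) and -0.86 with Sik targeting (SE 0.55, adjusted p 0.321), and neither passed. KT replicate 1 held the highest Ager level of the 12 libraries and Lkb1-deleted replicate 1 the lowest.

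Cav1 and Cav2 encode caveolin-1, the scaffold of caveolae, and caveolin-2, which needs caveolin-1 to reach the cell surface. The genes are neighbours on chromosome 6 in the same orientation: Cav2 spans 17281185 to 17289115 and Cav1 spans 17306335 to 17341452 on the plus strand, with 17219 bases between them. The 250 bases before each gene start are printed because these adjacent genes, whose proteins join in 1 complex, had different outcomes: Cav1 fell with Sik targeting and Cav2 did not pass in either direction. They are RefSeq promoter sequences of GRCm38.p6, 5′ to 3′ on the plus strand, at chr6:17306085-17306334 for Cav1 and chr6:17280935-17281184 for Cav2, and capitals mark matches to the motifs searched.
Cav1: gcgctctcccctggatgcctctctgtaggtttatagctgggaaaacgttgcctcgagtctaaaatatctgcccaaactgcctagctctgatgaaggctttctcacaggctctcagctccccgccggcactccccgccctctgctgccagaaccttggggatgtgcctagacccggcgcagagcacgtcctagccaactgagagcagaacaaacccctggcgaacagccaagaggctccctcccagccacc
Cav2: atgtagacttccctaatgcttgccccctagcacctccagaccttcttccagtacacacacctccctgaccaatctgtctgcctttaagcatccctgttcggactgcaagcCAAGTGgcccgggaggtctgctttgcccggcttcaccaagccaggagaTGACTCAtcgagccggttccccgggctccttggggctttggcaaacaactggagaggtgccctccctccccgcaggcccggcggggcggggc
Searched on both strands were the motifs of TEAD factors (GGAATG), AP-1 (TGANTCA), CREB (TGACGTCA) and NKX2-1 (CAAGTG), which do not overlap at the matches found. The Cav2 window holds an NKX2-1 motif starting 140 bases and an AP-1 motif starting 92 bases before the gene start, and the Cav1 window holds none of the 4. A further RefSeq promoter window of Cav1, at chr6:17307390-17307639 and not printed, also holds none of them. Among 32851 promoter windows of the same length, 11.6% hold the NKX2-1 motif, 6.75% the AP-1 motif, 12.6% the TEAD motif and 1.55% the CREB motif. RefSeq promoters were matched for 7 of the 9 markers, and the windows of the other 5 matched markers hold none of these motifs. A match is a description of letters and not a measured binding site.

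Cav1 was low in most perturbed libraries. The 3 Lkb1-deleted libraries had 3.04, 30.7 and 6.24 CPM, the sgSik1 libraries 3.69, 6.12 and 3.77, and the sgSik1-3 libraries 4.72 and 9.23, against 14.9, 26.0, 45.1 and 44.1 CPM in KT libraries. Lkb1-deleted replicate 2 was the only perturbed library within the KT range. Cav1 fell in Sik-targeted libraries by 2.56 on the log2 scale (SE 0.57, adjusted p 0.012). With Lkb1 deletion the change was -1.28 (SE 0.64, adjusted p 0.418), and it was -2.80 (adjusted p 0.055) without Lkb1-deleted replicate 2 and -0.79 without Lkb1-deleted replicate 1. The difference of 1.28 between Lkb1-deleted and Sik-targeted libraries (SE 0.60, unadjusted p 0.0482, adjusted p 0.39) was -0.27 without Lkb1-deleted replicate 2.

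Cav2 averaged higher in both perturbed groups, without passing. Its level was 66.8, 14.5 and 7.71 CPM in Lkb1-deleted libraries, 15.1, 24.6 and 19.8 CPM in sgSik1 libraries and 61.4 and 24.6 CPM in sgSik1-3 libraries, against 24.1, 10.5, 12.8 and 18.0 CPM in KT libraries. The log2 change was 0.87 with Lkb1 deletion (SE 0.62, adjusted p 0.611) and 0.83 with Sik targeting (SE 0.56, adjusted p 0.354). The Lkb1 value rests on replicate 1, without which it was -0.53 (adjusted p 0.756). The ratio of Cav2 to Cav1 counts, which needs no library scaling, was 22, 0.473 and 1.24 in Lkb1-deleted libraries, 4.08, 4.02 and 5.25 in sgSik1 libraries and 13 and 2.67 in sgSik1-3 libraries, against 1.61, 0.404, 0.285 and 0.409 in KT libraries. All 5 Sik-targeted ratios were above all 4 KT ratios, as the plot of count ratios shows.

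Fibroblasts and pericytes express Cav1, and their markers varied widely between libraries. The summed CPM of 12 such markers was 2.55 to 488 in Lkb1-deleted, 22.2 to 56.6 in Sik-targeted and 33.0 to 427 in KT libraries, and none of the 12 was at 0 in any of these groups. In Sik-targeted libraries 0 of the 10 tested stromal markers rose (5.81% of all tested genes did) and 2 fell (6.56% did). Those that fell were Col3a1 (log2 change -4.19) and Pdgfra (-4.03). Called or not, 9 of the 10 were lower than in KT, with a median log2 change of -2.51, beside -0.03 for all tested genes. Lkb1-deleted replicate 2 had the largest stromal sum of the 12 libraries (488 CPM) and the largest Cav1 level among the perturbed ones. In a fit added after seeing the data, without KT replicate 4 and Lkb1-deleted replicate 2, the libraries with the largest sums, the Cav1 change with Sik targeting was -2.38 (adjusted p 0.0095). Of these, Lkb1-deleted replicate 2 enters that comparison only through the shared estimate of the spread. KT replicates 2 and 3, with stromal sums of 128 and 215 CPM, stayed in that fit and exceeded every Sik-targeted sum. KT replicate 1 (33.0 CPM) lay within the Sik-targeted range. The fit therefore did not remove the difference in stromal markers between the groups. Endothelial markers, 12 genes in all and none at 0, summed to 7.17 to 267 CPM in Lkb1-deleted, 23.4 to 57.2 in Sik-targeted and 54.1 to 80.4 in KT libraries, and 1 of 12, Esam, fell with Sik targeting (log2 change -1.64). The part of these cells in the Cav1 result was not tested, and in bulk RNA fewer cells of a type and less RNA per cell cannot be told apart.

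**Figure D3:**
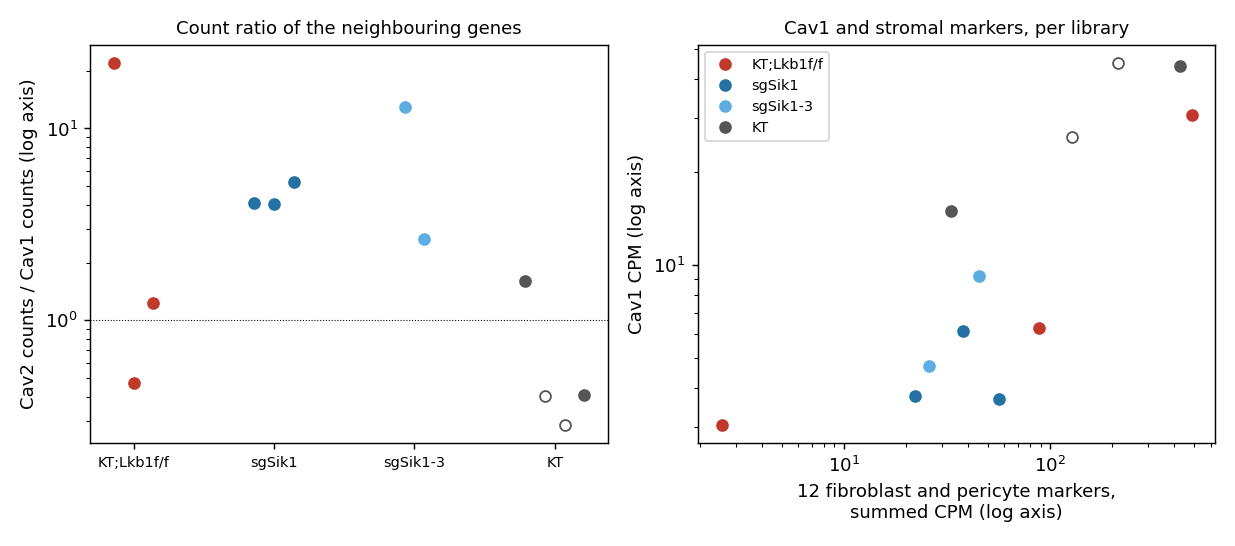
Left, ratio of Cav2 to Cav1 counts in each library on a log axis, by group, with a dotted line at equal counts; right, Cav1 CPM against the summed CPM of 12 fibroblast and pericyte markers, both on log axes, 1 point a library. Open circles are KT replicates 2 and 3; all Sik-targeted ratios lie between 2.67 and 13, above the KT ratios of 0.285 to 1.61, and Lkb1-deleted replicate 2 is the library with the largest marker sum.

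Gprc5a, the receptor noted above and a tumour suppressor in mouse lung, is on chromosome 6 at 135065651 to 135084709 (plus strand). It stood at 279, 220 and 222 CPM in Lkb1-deleted libraries, 598, 312 and 341 CPM in sgSik1 libraries, and 303 and 410.5 CPM in sgSik1-3 libraries, against 153, 102, 115 and 264 CPM in KT libraries. Every Sik-targeted library was above every KT library, while the Lkb1-deleted libraries lay within or just above the KT range. Gprc5a rose by 1.31 on the log2 scale with Sik targeting (SE 0.34, adjusted p 0.0235). It did not pass without KT replicate 1 (1.29, adjusted p 0.0567), without KT replicate 2 (1.14, 0.0932) or without KT replicate 3 (1.17, 0.0904). With Lkb1 deletion the change was 0.60 (SE 0.37, adjusted p 0.535), and the difference between Lkb1-deleted and Sik-targeted libraries was -0.71 (SE 0.37, adjusted p 0.444).

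Aqp5, the water channel of the AT1 apical membrane, lies on chromosome 15 at 99590782 to 99594829 (plus strand). Lkb1-deleted libraries had 155, 154 and 172 CPM, sgSik1 libraries 329, 249 and 180 CPM and sgSik1-3 libraries 126 and 223 CPM. KT libraries had 179, 78.3, 81.7 and 151 CPM. The 3 sgSik1 libraries were all above KT, though sgSik1 replicate 3 (180 CPM) only just exceeded KT replicate 1 (179 CPM). The library sgSik1-3 replicate 1 was within the KT range. The log2 change was 0.86 with Sik targeting (SE 0.34, adjusted p 0.111) and 0.39 with Lkb1 deletion (SE 0.38, adjusted p 0.726).

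Emp2, a tetraspan membrane protein of the PMP22 family, is on chromosome 16 at 10281749 to 10313968 (minus strand) and had the smallest SD relative to its mean of the 9 markers. Its level was 434, 245 and 257 CPM in Lkb1-deleted libraries, 165, 320 and 247 CPM in sgSik1 libraries and 239 and 266 CPM in sgSik1-3 libraries, against 237, 153, 186 and 337 CPM in KT libraries. All groups overlapped. The log2 change was 0.45 with Lkb1 deletion (SE 0.36, adjusted p 0.659) and 0.12 with Sik targeting (SE 0.32, adjusted p 0.853).

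The marker extremes fell on few libraries. Lkb1-deleted replicate 1 was the lowest of 12 libraries for 5 markers (Hopx, Ager, Pdpn, Rtkn2 and Cav1) and the highest for Cav2 and Emp2. The library titled sgSik1 replicate 1 was the highest for Hopx, Aqp5 and Gprc5a, and its 4 most abundant transcripts held 74.2% of the counts. KT replicate 2 was the lowest for Aqp5, Gprc5a and Emp2. The part of library composition in these extremes was not tested.

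With each Sik title set against KT on its own, the number of calls depended on the tool. In sgSik1 against KT, fitted in 4 title groups over 15303 genes, Cav1 fell by 2.81 on the log2 scale (SE 0.69, adjusted p 0.0345), which was 1 of 9 markers where 1.13% of genes were called lower, and edgeR called 0 markers higher, where 2.71% of genes were. DESeq2 and limma-voom each called 3 markers there, Cav1 and Rtkn2 lower and Gprc5a higher, the same 3 as edgeR called with all Sik-targeted libraries. Rtkn2 (-2.96, adjusted p 0.0684), Gprc5a (1.42, 0.0531) and Aqp5 (1.07, 0.117) did not pass in edgeR, although these 3 and Cav1 did not overlap with KT (2 higher, against 8.24% of genes, and 2 lower, against 10.6%). In edgeR, Cav1 did not pass in sgSik1 without sgSik1 replicate 1 or 3 or without KT replicate 2, 3 or 4 (log2 changes -2.93 to -2.63, adjusted p 0.0726 to 0.188). Without KT replicate 4 Gprc5a passed instead (1.73, adjusted p 0.0384), and without sgSik1 replicate 2 or Lkb1-deleted replicate 1 Rtkn2 and Gprc5a passed beside Cav1. In sgSik1-3 against KT 0 of 9 markers passed in edgeR, where 2.89% of genes did, and 5 had an unadjusted p under 0.05 (20.5% of genes): Rtkn2 (log2 change -3.62), Cav1 (-2.19) and Ager (-1.58) were lower, and Cav2 (1.41) and Gprc5a (1.19) were higher. DESeq2 called Rtkn2 and Cav1 in that comparison, and limma-voom called 0 markers. Of the 9 markers 2 were above and 4 below KT without overlap, where 14.9% and 20.9% of genes were. Summed Y-linked genes passed 10 CPM in 2 of 2 sgSik1-3 and 0 of 4 KT libraries, so targeting and sex cannot be told apart in that comparison.

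No marker passed between the guide sets. Summed Y-linked genes passed 10 CPM in 2 of 2 sgSik1-3 and 0 of 3 sgSik1 libraries, so guide set and sex cannot be told apart here. Between sgSik1-3 and sgSik1 0 of 9 markers had even an unadjusted p under 0.05 (3.45% of genes did), and 0 of 15303 genes passed the adjusted threshold (0%), also 0 markers with DESeq2 or limma-voom. The largest differences among the markers were 1.10 for Cav2 (SE 0.70) and -1.08 for Ager (SE 0.73), each with an adjusted p of 1. Between Lkb1-deleted and Sik-targeted libraries 0 of 9 markers passed with edgeR (0.221% of genes did), DESeq2 or limma-voom, and Hopx and Cav1 were those with an unadjusted p under 0.05 (12.7% of genes). With 2 to 5 libraries a group, these intervals are wide and do not show that the groups were alike.

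Other genes known from AT1 cells were mixed in direction with Sik targeting. Of 22 further AT1 genes 20 were tested, and with Sik targeting 3 rose (5.81% of all tested genes did) and 4 fell (6.56% did), with a median log2 change of -0.80, beside -0.03 for all tested genes. Among those that rose were Krt7, a keratin of simple epithelia (2.13, SE 0.48, adjusted p 0.013), and Vegfa, the vascular growth factor (1.48, SE 0.40, adjusted p 0.0262). Sec14l3, a lipid-transfer protein, fell by 3.36 (SE 0.80, adjusted p 0.0176). Egfl6, a matrix protein with EGF repeats, fell by 2.11 (adjusted p 0.0191), Limch1, an actomyosin regulator, by 3.26 (0.0251), and Col4a4, a chain of basement membrane collagen, by 2.43 (0.0328). For single genes, Egfl6 averaged 96.5 CPM in Sik-targeted and 418 CPM in KT libraries, and Krt7 averaged 532 and 122 CPM in the same groups. With Lkb1 deletion 0 of 20 passed, with a median of -0.77, beside -0.04 for all tested genes. The smallest p-values were for Gramd2 (log2 change -1.55, adjusted p 0.179) and Col4a4 (-2.15, 0.251). These 2 of the 20 had an unadjusted p under 0.05, where 13.1% of all tested genes did, a share no higher than the background. Called or not, 16 of the 20 were lower with Lkb1 deletion and 4 higher. Groups did not overlap for 4 lower (8.30% of all tested genes) and 1 higher (6.38%).

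Genes of the transitional epithelial state were mostly higher with Sik targeting, and less uniformly so with Lkb1 deletion. With Sik targeting 9 of 14 such genes rose (5.81% of all tested genes did) and 1 fell (6.56% did). Their median log2 change was 1.98, beside -0.03 for all tested genes. Among them were Krt8 (1.94, adjusted p 0.0139), Krt18 (2.02, 0.00475) and Krt19 (2.71, 0.0124), keratins of the transitional state, Sfn, a 14-3-3 protein (4.12, 0.00459), and Cdkn1a, the cell cycle inhibitor p21 (2.87, 0.0152). The others that rose were Plaur, the urokinase receptor (3.44), Ndrg1, a stress-responsive gene (3.25), Sprr1a, a cornified-envelope protein (2.76), and Hbegf, an EGF receptor ligand (1.55), and Nupr1, a stress-induced chromatin protein, fell by 1.52. With Lkb1 deletion 2 of 14 rose, Hbegf (2.02, SE 0.33, adjusted p 0.0143) and Sfn (3.92, SE 0.76, adjusted p 0.032), with a median of 1.18. Called or not, 9 of the 14 were higher and 5 lower with Lkb1 deletion, against 13 higher and 1 lower with Sik targeting. Of all tested genes 1.16% were called with Lkb1 deletion, in either direction, and their median was -0.04. The summed CPM of the 14 genes was 1809 to 2360 in Lkb1-deleted, 1535 to 8519 in Sik-targeted and 757 to 960 in KT libraries. Of 17 AT2 markers 1 rose (5.81% of all tested genes did) and 9 fell (6.56% did) with Sik targeting (median -2.11). With Lkb1 deletion 0 of 17 passed (median -0.79), where 1.16% of all tested genes did, so fewer calls were made there in general.

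**Figure D4:**
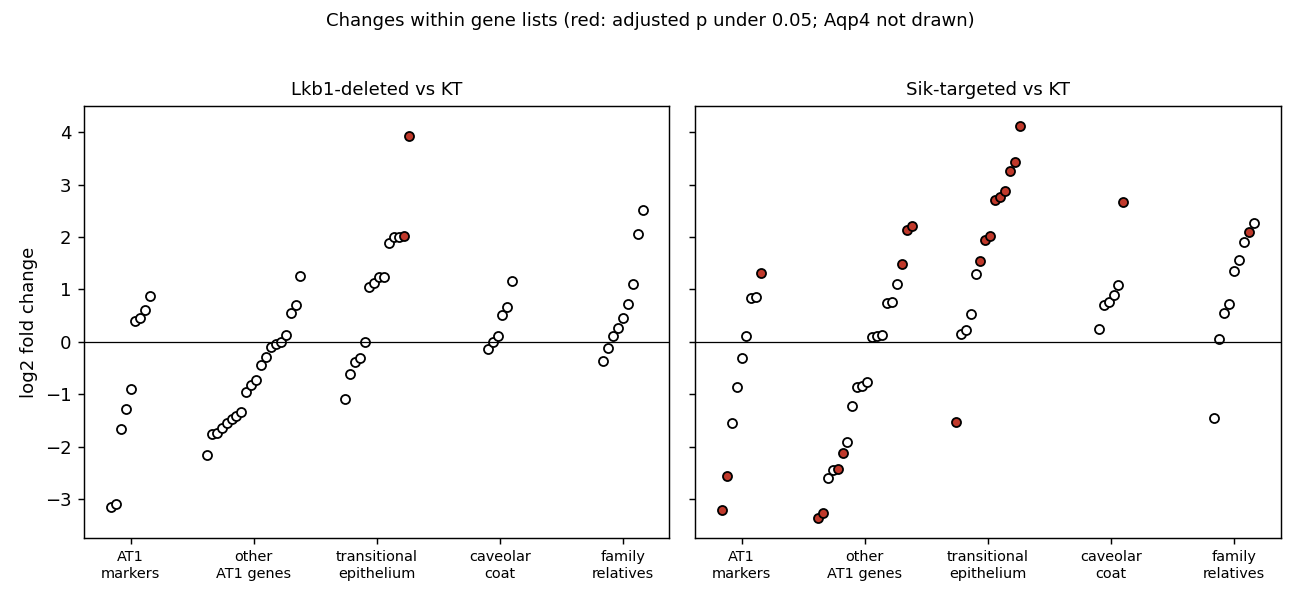
Log2 fold change of each tested gene except Aqp4 (vertical axis) in the AT1 marker list and 4 related lists, for Lkb1-deleted against KT (left) and Sik-targeted against KT (right). Red points passed an adjusted p of 0.05. Aqp4, at 0 counts in Lkb1-deleted libraries, is drawn in neither panel, although it was called lower in both comparisons. The transitional genes lie mostly above 0, with medians of 1.18 and 1.98, while the AT1 markers lie on both sides.

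No tested gene of the caveolar coat fell where Cav1 fell. Of 6 such genes 1 rose with Sik targeting, the cavin gene Prkcdbp (2.66, SE 0.63, adjusted p 0.0154), and 0 fell, with a median of 0.82. Ptrf, the principal cavin, changed by 0.89 (adjusted p 0.0776). Of all tested genes 5.81% were called higher and 6.56% lower with Sik targeting, so few calls would be made in lists this short. With Lkb1 deletion 0 of 6 passed (median 0.31), where 1.16% of all tested genes did. The same shares apply to the relatives and binding partners below. Of 10 tested relatives of the markers, Aqp1, a water channel abundant in capillaries, rose with Sik targeting (2.09, SE 0.62, adjusted p 0.0405) and Aqp4, a water channel of basolateral membranes, fell by 3.54 (SE 0.96, adjusted p 0.0313). Aqp4 had 0 counts over the Lkb1-deleted libraries and 106 over the KT libraries, at least 22.4-fold lower against a floor of 3 counts over the group (adjusted p 0.0476). Of 9 tested binding partners, Ezr, or ezrin, which links podoplanin to actin, rose with Sik targeting (1.15, SE 0.31, adjusted p 0.0279), and 0 passed with Lkb1 deletion.

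Markers of other cells that express some of the 9 genes were also present. Beside the calls below, 5.81% of all tested genes were called higher and 6.56% lower with Sik targeting, and 1.16% either way with Lkb1 deletion. Lymphatic endothelial markers, which bear on Pdpn, summed to 2.67 to 20.4 CPM in Lkb1-deleted, 3.55 to 13.5 in Sik-targeted and 1.73 to 14.1 in KT libraries, with 0 of 4 tested genes passing in either comparison. Mesothelial markers summed to 8.26 to 75.8 CPM in Lkb1-deleted, 117 to 333 in Sik-targeted and 6.14 to 31.2 in KT libraries. That sum was led by Msln, which rose with Sik targeting and averaged 220 CPM in Sik-targeted and 12.6 CPM in KT libraries, whereas Upk1b, the other mesothelial gene tested, fell (log2 change -3.39). Calb2 was at 0 in Sik-targeted libraries and Upk3b, Wt1, Muc16 and Calb2 were at 0 in Lkb1-deleted libraries. Basal cell markers summed to 0.367 to 4.74, 2.70 to 31.5 and 0.212 to 6.02 CPM in the Lkb1-deleted, Sik-targeted and KT libraries, with Krt5 at 0 in both perturbed groups. Of the 3 basal markers tested, Krt14 rose with Sik targeting (log2 change 4.12, adjusted p 0.0297), averaging 9.31 CPM in Sik-targeted and 0.435 CPM in KT libraries, and Dsg3 (3.56, adjusted p 0.0563) and Trp63 (-1.94, 0.221) did not pass. Club cell markers (46.7 to 334, 23.2 to 112 and 628 to 4070 CPM) and ciliated cell markers (2.31 to 5.51, 0.362 to 4.27 and 21.4 to 43.4 CPM, groups in the same order) were lower in every perturbed library than in every KT library. Macrophage markers summed to 13.7 to 15.2, 13.8 to 24.4 and 91.9 to 1129 CPM in those groups, with C1qa and Siglec5 at 0 in both perturbed groups, and leukocyte markers to 79.3 to 311, 98.9 to 311 and 165 to 227 CPM. The part of these cells in the marker values was not tested.

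Over the 12 libraries the markers did not share 1 profile. Against the mean of the 9 scaled profiles, Pearson's r was 0.72 for Hopx and Ager, 0.66 for Pdpn, 0.53 for Rtkn2, 0.39 for Cav1, 0.33 for Aqp5, 0.18 for Gprc5a, -0.06 for Emp2 and -0.31 for Cav2. These are descriptions over libraries that differ in group, depth and composition, and each marker is part of the mean it is compared with. Of 9821 other genes, those nearest to the mean profile were Mrpl46 (r 0.85), Gba2 (0.85), Usp4 (0.84), Akr1b3 (0.83) and Gbas (0.79). None of these 5 passed in Lkb1-deleted or Sik-targeted libraries against KT.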

How the data were processed

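RNA was amplified and sequenced from sorted tumour cells, per the labels' protocols. The deposited values are raw read counts per gene symbol in 1 table, made by the authors with STAR 2.4.2a, HTSeq and the mm10 genome, per the submitters' processing notes. For the annotation and the strand setting of the counting, the sources used here give nothing. Columns were matched to samples by title, and groups follow title and genotype labels. Libraries of the same group were compared for duplication and none was found (lowest chi-square per degree of freedom 15.1).

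The tests used edgeR 4.0.16 under R 4.3.3 (TMM, filterByExpr, robust quasi-likelihood F test, Benjamini-Hochberg adjustment over all tested genes). Lkb1-deleted, Sik-targeted and KT libraries entered 1 fit (13575 genes, common dispersion 0.262), and the 4 title groups another (15303 genes, common dispersion 0.287). The SE is the absolute log2 change over the square root of F. DESeq2 1.42.0 and limma 3.58.1 were alternatives. The fit was tested on simulated data. Lengths and coordinates are from GENCODE (GRCm38). Floors of 3 counts cover counting error only, and reads carry no molecular identifiers. The SEs and p-values rest on the spread between libraries.

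The markers and the 15 other gene lists were chosen with earlier results of these data known. All 9 markers are named; from related lists, members past the threshold (1 of them is not reported here) and up to 4 with the smallest p, the lists of other cell types being described by sums and by single defining markers; and the 5 genes nearest to the mean marker profile with at least 2 CPM on average.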

Additional observations from a re-analysis of the deposited data

Results flagged for a closer look

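In 2 of 18 sets of a marker and a group of 4 or more libraries, 1 library lay far from the rest of its group by Dixon's gap test, where chance gives about 1 in 20. Podoplanin (Pdpn) in sgSik1 replicate 3 was 6.11 CPM, far above the other 4 Sik-targeted libraries (gap over range 0.822). Cav2 in sgSik1-3 replicate 1 was 61.4 CPM, far above the other 4 Sik-targeted libraries (gap over range 0.794).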

How the results depend on the processing

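Across 22 alternatives, 1 of them (without KT replicate 4 and Lkb1-deleted replicate 2 together) added after seeing the data, 1161 marker changes were refitted: 1072 kept direction and side of the threshold, 13 lost and 35 gained the threshold, and 41 changed sign. Markers called for Lkb1-deleted against KT numbered 2 with DESeq2, 2 with limma-voom and 3 without the low-count filter (0 to 1 leaving out 1 library). For Sik-targeted against KT they were 0 without KT replicates 2 and 3 (2 to 4 leaving out 1 library). For sgSik1 against KT they were 3 with DESeq2, limma-voom or no filter, 2 with only these groups fitted, 0 without KT replicates 2 and 3, and 2 under the added alternative (0 to 3). For sgSik1-3 against KT they were 2 with DESeq2 or no filter and 4 with only these groups fitted (0 to 1).

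Sign changes, none called, were these. Between Lkb1-deleted and Sik-targeted libraries: Rtkn2 -1.25 and Cav2 -0.34 with limma-voom; Ager 0.00015 without filter, 0.16 in 4 title groups and 0.020 without KT replicates 2 and 3; and Rtkn2 -0.25 and Cav1 -0.23 under the added alternative. Without KT replicates 2 and 3 they were also Aqp5 -0.0084 (Lkb1-deleted against KT), Emp2 -0.23 (Sik-targeted), Hopx 0.021, Cav2 -0.11 and Emp2 -0.26 (sgSik1) and Emp2 -0.18 (sgSik1-3 against KT). Leaving out 1 library, the values ran for Lkb1-deleted against KT from -0.53 to 1.33 (Cav2), for Sik-targeted against KT from -0.047 to 0.35 (Emp2) and for sgSik1 against KT from -0.34 to 0.18 (Hopx) and -0.13 to 0.33 (Emp2). For Lkb1-deleted against Sik-targeted they ran from -0.41 to 0.45 (Ager), -0.34 to 0.70 (Rtkn2), -0.27 to 1.74 (Cav1) and -1.38 to 0.50 (Cav2). For sgSik1-3 against sgSik1 they ran from -1.44 to 0.023 (Hopx), -0.89 to 0.013 (Pdpn), -1.26 to 0.031 (Rtkn2), -0.46 to 0.15 (Gprc5a) and -0.14 to 0.29 (Emp2). The cause was not tested.

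Over 15 same-numbered pairs of libraries the correlation of deviations was -0.41 to 0.28, above 0.1 in 6. Pairs with different numbers were not compared, so whether the replicate numbers pair the libraries stays undecided. With the number as a replicate block, Ager was 0.052, Rtkn2 -0.29 and Cav2 -0.27 (Lkb1-deleted against Sik-targeted), Hopx 0.11 (sgSik1 against KT), and Pdpn 0.18 and Emp2 -0.017 (sgSik1-3 against sgSik1). In sgSik1 against KT the block gave Cav1 -2.67 (adjusted p 0.0531) and Gprc5a 1.76 (0.0497). Low counts limit Pdpn and Rtkn2 most, with 0 to 37 counts in Lkb1-deleted libraries.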
